A study of Mus musculus with 14 samples.

Results

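The light-sensing outer segment of a photoreceptor is a modified cilium packed with a stack of membrane discs. In rods the discs are closed and stand free inside the plasma membrane, whereas in cones they stay folds of that membrane, open to the outside. Peripherin-2 and ROM1, a pair of related tetraspanins, curve the disc rims, other proteins shape the nascent discs at the base of the stack, and proteins of the axoneme keep the discs aligned along the cilium. This report describes 9 genes of that structure, chosen by name for their role and not by their values: Prph2, Rom1, Fscn2, Cdhr1, Prom1, Rp1, Rp1l1, Tulp1 and Reep6. They are 9 of the 24421 genes of the RNA count table, and 115 of the 53204 elements of the ATAC-seq count table, each 200 bp long, lay within 50 kb of one of them.

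RNA-seq and ATAC-seq, in which a transposase cuts accessible DNA, were performed on photoreceptors of C57BL/6 mice at 8 weeks of age, sorted by FACS for GFP. Rods came from Nrl-eGFP mice, Nrl-/- photoreceptors from mice that carried the same reporter and the Nrl knockout (Nrl-eGFP;NrlKO), and green cones from Opn1mw-GFP mice. For single-sorted green cone replicate 1 the study's own sample table names the Nrl-/- reporter line instead, and the label was followed here. RNA was measured in 3 libraries of rods and 3 of Nrl-/- photoreceptors, and accessibility in 2 libraries for each of 4 kinds of sample, namely rods, Nrl-/- photoreceptors, and green cones from a single sort or from a repeat sort (double-sorted), which makes 14 libraries in all. The eGFP of rods and of Nrl-/- photoreceptors is driven by the Nrl promoter, the latter cells are cone-like through loss of the rod factor NRL and only putatively blue cones, and each library pools the retinas of several mice. The mice were male, except that each pool of double-sorted green cones also held a female. There was no RNA from green cones.

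The libraries held 18376770 to 26312895 counts over genes and 1062403 to 5770075 counts over elements, with the double-sorted green cones shallowest. The labels were checked first against Nrl, the targeted gene, whose normalized counts were 13427, 18962 and 16709 in rods and 774, 881 and 551 in Nrl-/- photoreceptors, 4.49% of the rod mean. Gnat1, the rod transducin, stood in Nrl-/- photoreceptors at 0.21% of its rod mean, and Opn1sw, the blue cone opsin, and Gnat2, the cone transducin, stood in rods at 0.613% and 0.575% of their Nrl-/- means. For other cell types, the summed level of 8 bipolar cell markers was 81.3 to 111.4 CPM in rods and 1375.9 to 1573.5 CPM in Nrl-/- photoreceptors, most of it Cabp5, and that of 7 Müller glia markers was 91.6 to 147.7 and 714.7 to 876.3 CPM, most of it Clu and Apoe. The remaining markers of both lists did not move as one, since Prkca was higher in rods and Glul, Rlbp1 and Slc1a3 were not called. The sum of 4 microglia markers was 1.37 to 2.17 CPM in rods and 10.8 to 29.3 CPM in Nrl-/- photoreceptors, and of these C1qa and C1qb were called lower in rods. The ganglion cell marker Pou4f1 was also called lower in rods (mean normalized counts 1.92 and 149.1) and the endothelial marker Pecam1 higher (148.1 and 10.1), whereas none of the amacrine or pigment epithelium markers tested was called. The study also lists a lower RNA integrity for the rod libraries than for the Nrl-/- libraries. The part of these differences in the results that follow was not tested.

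In RNA, rods were compared with Nrl-/- photoreceptors to ask which disc genes differ between a rod and a cone-like cell with the same reporter. Against a fold change of 2, tested with the quasi-likelihood model of edgeR at a Benjamini-Hochberg adjusted p under 0.05, 5 of the 9 genes were higher in rods (Fscn2, Reep6, Rp1, Rom1 and Prph2), 1 was lower (Cdhr1), and 3 were not called (Prom1, Rp1l1 and Tulp1). Among all 12327 genes tested, 6.88% were higher in rods and 13.3% lower. The median log2 fold change of rods over Nrl-/- photoreceptors was 1.5 over the 9 genes and 0.01 over all genes. The libraries of the groups did not overlap at any of the 9 genes, which was also the case for 67% of all genes tested. With no fold change threshold 7 of them were higher and 2 lower in rods, where 29.5% and 31.4% of all genes were. Together the 9 genes took 2.47% to 2.69% of the assigned reads of rods and 1.29% to 1.39% of those of Nrl-/- photoreceptors.

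**Figure D1:**
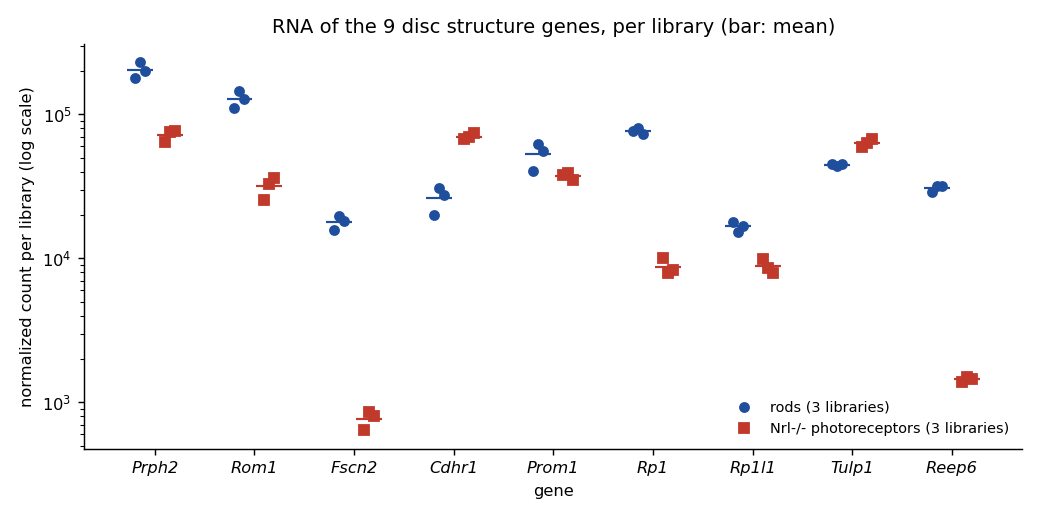
Normalized counts of the 9 disc structure genes on a log axis in the 3 libraries of rods (circles) and the 3 libraries of Nrl-/- photoreceptors (squares), with the mean as a bar. Fscn2 and Reep6 show the widest gaps, at 23.2-fold and 21.3-fold higher in rods, and Cdhr1 and Tulp1 lie higher in Nrl-/- photoreceptors.

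Prph2 and Rom1 encode the tetraspanins of the disc rim, which assemble with each other. Prph2 (chromosome 17, plus strand) stood at 179532, 229399 and 200330 normalized counts in the rod libraries and at 64548, 75152 and 76412 in the Nrl-/- libraries. Every rod library lay above every Nrl-/- library, and the gene was 2.82-fold higher in rods (log2 fold change 1.5 ± 0.15 SE, edgeR adjusted p = 0.00345, n = 3 and 3). Rom1 (chromosome 19, minus strand) had 109787, 145537 and 128049 in rods and 25545, 33043 and 36269 in Nrl-/- photoreceptors. Again no library overlapped, and Rom1 was 4.04-fold higher in rods (log2 fold change 2.01 ± 0.17 SE, edgeR adjusted p = 5.3e-05). To compare the pair, their ratio was taken within each library. Per kb of exon, the ratio of Prph2 to Rom1 was 0.943, 0.909 and 0.902 in rods and 1.46, 1.31 and 1.22 in Nrl-/- photoreceptors. By this measure Rom1 was the higher of the pair in each rod library and Prph2 in each Nrl-/- library. The log2 difference between the groups was -0.53 (exact two-sided permutation test, p = 0.1, the smallest that 3 against 3 allows). Which of the pair is higher depends on the exon lengths used, 2646 bp for Prph2 and 1526 bp for Rom1, whereas the difference between the groups does not.

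Fscn2, an actin-bundling fascin of photoreceptors, showed the largest difference of the 9. It had 15774, 19595 and 18109 normalized counts in rods and 638, 853 and 809 in Nrl-/- photoreceptors. The Nrl-/- mean was 4.3% of the rod mean and no library came near the other group (log2 fold change 4.54 ± 0.16 SE, edgeR adjusted p = 1.0e-09). Cdhr1, a protocadherin at the base of the outer segment where new discs form, went the other way. It had 20120, 30952 and 27687 normalized counts in rods and 67140, 69094 and 73757 in Nrl-/- photoreceptors. The Nrl-/- libraries were tightly grouped above all rod libraries, and Cdhr1 was 2.67-fold higher in Nrl-/- photoreceptors (log2 fold change of rods over Nrl-/- photoreceptors -1.41 ± 0.16 SE, edgeR adjusted p = 0.0152). This call rested on the lowest rod library, since without rod replicate 1 the log2 fold change was -1.25 and the edgeR adjusted p 0.0521. Cdhr1 in rods stood at 37.5% of its Nrl-/- mean, where Opn1sw and Gnat2 were at 0.613% and 0.575%.

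Prom1 encodes prominin-1, a membrane protein of the growing edges of new discs. Its normalized counts were 40315, 61731 and 56024 in rods and 38023, 38857 and 34880 in Nrl-/- photoreceptors. The lowest rod library was only just above the highest Nrl-/- library, and the change was not called (log2 fold change 0.50 ± 0.16 SE, 95% interval 0.19 to 0.81, edgeR adjusted p = 1 against the threshold and 0.0163 with none).

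Rp1 and Rp1l1 encode related microtubule-associated proteins of the axoneme with doublecortin domains. Rp1 had 76546, 80568 and 73001 normalized counts in rods and 10064, 7880 and 8277 in Nrl-/- photoreceptors. The groups were far apart and the gene was 8.78-fold higher in rods (log2 fold change 3.13 ± 0.14 SE, edgeR adjusted p = 2.7e-08). Rp1l1 had 17906, 15255 and 16746 in rods and 9861, 8582 and 7883 in Nrl-/- photoreceptors. It was 1.9-fold higher in rods without overlap, but was not called against a fold of 2 (log2 fold change 0.92 ± 0.13 SE, 95% interval 0.68 to 1.17, edgeR adjusted p = 1 against the threshold and 6.1e-05 with none). The ratio of Rp1 to Rp1l1 per kb of exon was 2.35, 2.9 and 2.4 in rods and 0.561, 0.505 and 0.577 in Nrl-/- photoreceptors. Rp1 exceeded its relative in every rod library and lay below it in every Nrl-/- library (log2 difference 2.21, exact two-sided permutation test, p = 0.1, the smallest possible). These values divide Rp1 by all 12293 bp of its annotated exons, whereas its main transcript is 7508 bp long.

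Tulp1 encodes a tubby-like protein needed for the transport of proteins to the outer segment. It had 45061, 43759 and 45247 normalized counts in rods and 59472, 63678 and 67323 in Nrl-/- photoreceptors. All Nrl-/- libraries were higher, by 1.42-fold, which was not called (log2 fold change of rods over Nrl-/- photoreceptors -0.51 ± 0.12 SE, 95% interval -0.74 to -0.27, edgeR adjusted p = 1 against the threshold and 0.00291 with none). Reep6 encodes a membrane-shaping protein of the endoplasmic reticulum that rods need for the trafficking of guanylate cyclases. Its normalized counts were 28655, 31714 and 31880 in rods and 1379, 1495 and 1447 in Nrl-/- photoreceptors. The groups were separated by 21.3-fold with little spread in either (log2 fold change 4.42 ± 0.13 SE, edgeR adjusted p = 2.4e-10).

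The residue of these transcripts in Nrl-/- photoreceptors, from 4.3% of the rod mean for Fscn2 and 4.68% for Reep6 to 70.7% for Prom1, was above that of Gnat1 and the rod factor Nr2e3, which stood at 0.21% and 0.204%. In these bulk libraries, fewer cells of a type and less RNA per cell cannot be told apart.

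Levels were compared between genes only as RPKM, normalized for depth and for kb of exon. In rods the order of mean RPKM was Rom1 at 3733.8 ± 522.3 (SD, n = 3), Prph2 at 3422.2 ± 422.1, Tulp1 at 955.7 ± 17.3, Reep6 at 680.1 ± 40.2, Prom1 at 572 ± 120.4, Fscn2 at 462.6 ± 50, Rp1 at 278.2 ± 13.7, Cdhr1 at 269.7 ± 57.1 and Rp1l1 at 109.7 ± 8.77. The libraries overlapped between Rom1 and Prph2, between Reep6 and Prom1, between Prom1 and Fscn2 and between Rp1 and Cdhr1, so those neighbours did not differ beyond the spread between libraries. Within each rod library, however, Rom1 was above Prph2, Reep6 above Prom1 and Prom1 above Fscn2, and the order of Rp1 and Cdhr1 varied. In Nrl-/- photoreceptors the order was Tulp1 at 1357.7 ± 84, Prph2 at 1213.9 ± 109.8, Rom1 at 923.9 ± 160.8, Cdhr1 at 719.1 ± 34.9, Prom1 at 404.4 ± 22.8, Rp1l1 at 57.9 ± 6.62, Reep6 at 31.9 ± 1.29, Rp1 at 31.7 ± 4.22 and Fscn2 at 19.9 ± 2.94. There Tulp1 and Prph2, Rom1 and Cdhr1, and Reep6 and Rp1 overlapped, although Tulp1 was above Prph2 and Rom1 above Cdhr1 within each library. With the main transcript's length, Rp1 would be at 455.5 RPKM in rods and 51.9 in Nrl-/- photoreceptors.

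**Figure D2:**
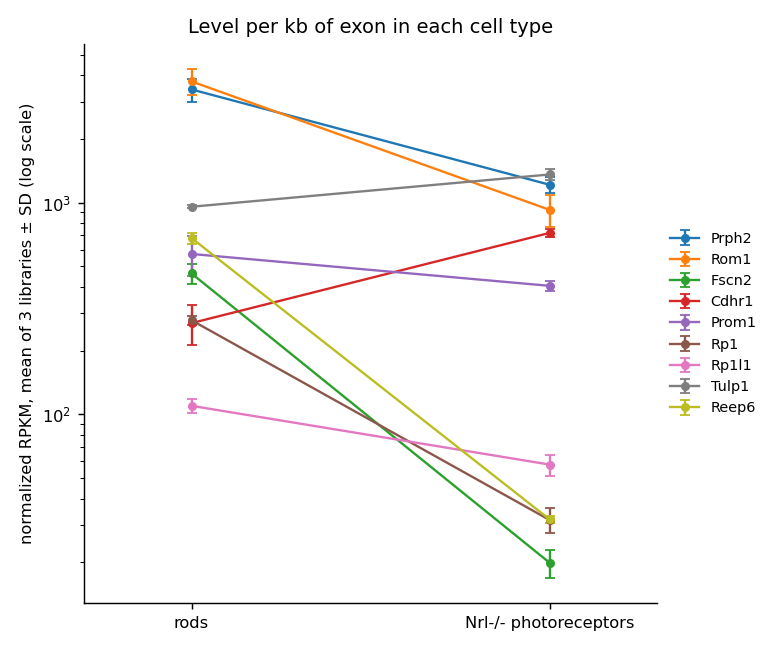
Mean normalized RPKM of each gene (log axis, error bars SD over 3 libraries) in rods and in Nrl-/- photoreceptors, with lines joining the same gene. Cdhr1 rises from 269.7 to 719.1 and crosses the falling lines of Fscn2, Reep6, Rp1 and Prom1, and Tulp1 overtakes Prph2 and Rom1.

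For each of the 9, the gene nearest in level per kb was sought only among genes outside the 9. The measure was Euclidean distance over the 6 libraries in log2 of RPKM plus 1. Nearest were Rcvrn for Prph2 (distance 0.77) and for Rom1 (0.95), and Faim for Fscn2 (1.02) and for Reep6 (0.99). The others were Ankrd33 for Cdhr1 (0.60), Rsrp1 for Prom1 (0.39), Spry2 for Rp1 (0.48), Cfap20 for Rp1l1 (0.21) and Aipl1 for Tulp1 (0.77). Fscn2 and Reep6, the genes with the widest gaps, therefore shared a nearest gene outside the 9, as did Prph2 and Rom1.

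Other genes of the outer segment were read from 4 lists. Of 12 genes of outer segment membranes found in the table (13 were listed), 9 were higher in rods and none lower, with a median log2 fold change of 2.01. They include Cnga1, a subunit of the rod cyclic nucleotide-gated channel (log2 fold change 9.18), and Gucy2f, a retinal guanylate cyclase (7.69). Of 12 genes of disc formation and ciliary actin, such as the Arp2/3 and WAVE subunits, none was higher and 1 was lower (median -0.07), which was Myo7a, an unconventional myosin (log2 fold change of rods over Nrl-/- photoreceptors -1.49 ± 0.18 SE, edgeR adjusted p = 0.0122). Of 12 genes of the axoneme and connecting cilium none was called in either direction (median 0.64). These counts stand beside the 6.88% of all tested genes called higher in rods and 13.3% called lower.

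Among relatives of the 9 genes, more were called lower in rods than higher. None of the listed relatives of Cdhr1 or Prom1 could be tested. Of 19 relatives listed 11 had enough counts to be tested, and of these 1 was higher in rods and 5 were lower (median log2 fold change -0.63). Tub, the founder of the tubby family, was the higher one (log2 fold change 1.66 ± 0.13 SE, edgeR adjusted p = 1.8e-04), and Tulp3 was lower (-2.64 ± 0.45 SE, adjusted p = 0.00375) from a mean of 92.4 normalized counts in Nrl-/- photoreceptors. The other 4 were REEP genes. Reep2 fell from a mean of 2091.7 normalized counts in Nrl-/- photoreceptors to 526.7 in rods, Reep5 from 753.5 to 220.5, Reep4 from 352.6 to 54.5 and Reep1 from 233.4 to 61.5, with log2 fold changes of rods over Nrl-/- photoreceptors of -1.99, -1.77, -2.69 and -1.92 and edgeR adjusted p of 4.4e-06, 0.0044, 4.1e-05 and 0.00104. Reep6 was thus the only one of the 6 tested REEP genes called higher in rods, and Reep3 (log2 fold change 0.62) was not called.

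Accessibility was compared between rods and cones, with the Nrl-/- photoreceptors and the double-sorted green cones as a joint group of 4 cone libraries, to ask where chromatin near these genes differs. Of 110 elements tested, 15 were more open in rods and 1 in cones (edgeR against a fold change of 2, adjusted p under 0.1), or 13.6% and 0.909%, where 3.98% and 18.1% of all 51563 elements tested were. For 46 tested elements the nearest start site was that of one of the 9 genes, and 14 of these were more open in rods. Of the other 64, nearest to a neighbouring gene, 1 was. It lay at -542 bp from the start of Rom1, nearest to Eml3 but within 1000 bp upstream of Rom1. The median log2 fold change of rods over cones was 0.94 over the elements near these genes and -0.13 over all elements. It was 1.22 over the 12 promoter elements of these genes, within 1000 bp upstream to 100 bp downstream of a start site, and 0.23 over all 13941 promoter elements tested. With the study's processed reads as library sizes, the same medians were 1.48 and 0.34 over elements, and 1.78 and 0.69 over promoters, and 3518 of all elements were more open in rods and 6424 in cones, where TMM scaling gave 2054 and 9340.

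Counts of calls turned on single libraries. The 15 elements became 7 without rod replicate 1 and 7 without rod replicate 2. Green cone replicate 3, double-sorted, stood apart from its partner, with a correlation of 0.734 over log2 CPM where the other pairs had 0.91 to 0.975, and its summed CPM over these 115 elements was 1256.1 where the other 7 libraries had 2426.3 to 4768.2. Without it 16 elements were more open in rods and 1 in cones, and with the single-sorted libraries as the green cones 13 and 2.

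**Figure D3:**
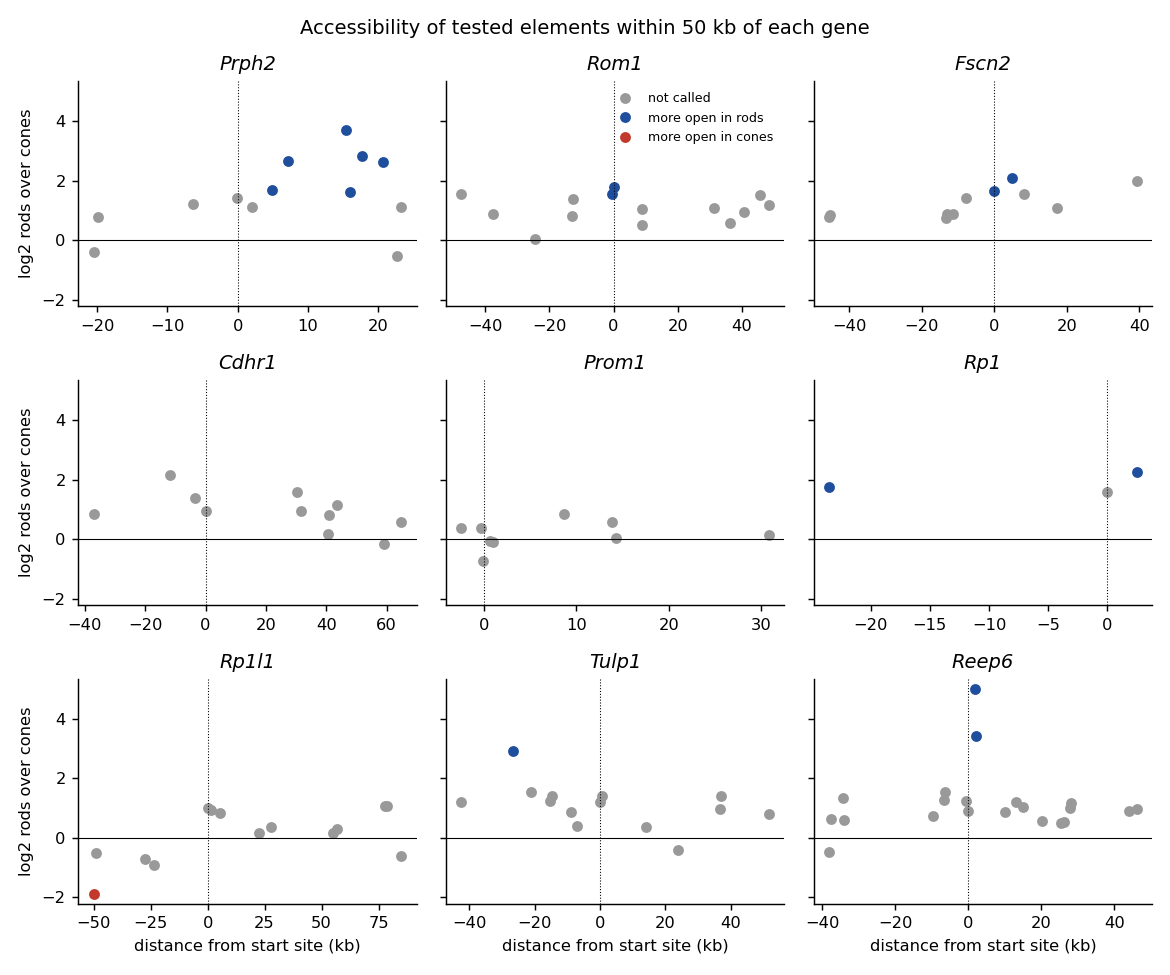
Log2 fold change in accessibility of rods over cones for the tested elements within 50 kb of each gene, against the distance in kb of the element from the start site (negative is upstream). Blue points were more open in rods, red more open in cones, and grey not called. The called elements of Prph2 lie downstream of its start, those of Reep6 inside the gene, and none of the points of Cdhr1 or Prom1 is coloured.

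By gene, 6 elements were more open in rods at Prph2, 2 each at Rom1, Fscn2, Rp1 and Reep6, 1 at Tulp1, and none at Cdhr1, Prom1 or Rp1l1. The element called more open in cones lay at -49947 bp from the start of Rp1l1 and nearest to Sox7, with 2.5 and 3.77 CPM in rods, 13.2 and 11.1 in Nrl-/- photoreceptors and 7.77 and 14.4 in double-sorted green cones.

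For each gene called in RNA, the called element nearest to its start site and outside exons is printed here, since these sequences are where DNA near the gene was more open in rods. Rom1 and Cdhr1 had no such element. Sequences are from GRCm38, plus strand, 5′ to 3′, at chr17:46915247-46915446 (an intron of Prph2, +4868 bp from its start), chr11:120366319-120366518 (an intron of Fscn2, +4884 bp), chr1:4357728-4357927 (an intron of Rp1, +2476 bp) and chr10:80331880-80332079 (an intron of Reep6, +1834 bp). Capitals mark every match on either strand to one of 8 motifs. They were the long form CTAATCC and the short form TAATCC of a CRX type homeodomain motif, the long form TGCTGAC and the short form TGCTGA of an NRL motif, the nuclear receptor motif AGGTCA, the bHLH motif CATATG, the bZIP motif TGANTCA, and TAATTA for another class of homeodomain.
Prph2: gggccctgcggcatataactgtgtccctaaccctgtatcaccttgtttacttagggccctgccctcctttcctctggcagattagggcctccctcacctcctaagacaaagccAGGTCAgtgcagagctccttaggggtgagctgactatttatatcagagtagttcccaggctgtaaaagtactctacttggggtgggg
Fscn2: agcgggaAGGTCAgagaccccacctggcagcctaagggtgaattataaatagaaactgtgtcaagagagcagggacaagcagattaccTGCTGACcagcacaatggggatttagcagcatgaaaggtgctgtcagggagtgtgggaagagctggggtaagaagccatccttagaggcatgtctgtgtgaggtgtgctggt
Rp1: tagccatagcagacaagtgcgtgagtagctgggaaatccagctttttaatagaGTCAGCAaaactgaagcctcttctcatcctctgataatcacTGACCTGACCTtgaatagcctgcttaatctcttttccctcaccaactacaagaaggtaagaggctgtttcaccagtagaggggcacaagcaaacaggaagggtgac
Reep6: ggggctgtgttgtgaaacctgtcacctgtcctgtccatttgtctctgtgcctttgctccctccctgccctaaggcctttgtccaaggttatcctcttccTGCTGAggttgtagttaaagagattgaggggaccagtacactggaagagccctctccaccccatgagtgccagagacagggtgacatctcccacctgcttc

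In these letters, the nuclear receptor motif was found in the elements of Prph2, Fscn2 and Rp1. In Rp1 it was on the minus strand, with overlapping matches that start at bases 95 and 100. The short NRL form was found in the elements of Fscn2, Rp1 and Reep6. The matches in Fscn2 and Rp1 extended to the long NRL form, and that in Reep6 did not. Each short form is contained in its long form, so their counts overlap. Over the 15 elements more open in rods, 6 held the nuclear receptor motif, 5 the short and 2 the long NRL form, 2 the short and 0 the long CRX form, 1 the bZIP motif, and 0 the bHLH motif or the other homeodomain motif. Over all 53204 elements, each of the same length, the shares were 14.9% for the nuclear receptor motif, 15.9% and 4.0% for the short and long NRL forms, 21.1% and 7.6% for the short and long CRX forms, 6.3% for bZIP, 2.5% for bHLH and 4.7% for the other homeodomain motif. Over the 115 elements within 50 kb, the nuclear receptor motif was in 12.2%. The short and long NRL forms were in 18.3% and 7.8%, and the short and long CRX forms in 18.3% and 11.3%. The bZIP motif was in 7.0%, bHLH in 0.9% and the other homeodomain motif in 2.6%. The nuclear receptor, short CRX, bHLH and other homeodomain shares were below those over all elements. Among the 48 elements nearest to one of the 9 genes, 11 held the nuclear receptor motif, 12 the short and 5 the long NRL form. The short CRX form was in 11, the long in 7, bZIP in 4, bHLH in 1 and the other homeodomain motif in 2. There only the bHLH and other homeodomain shares were below those over all elements. The motifs were chosen by their known factors after the element results were seen, and a match describes letters and not binding.

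At Reep6 the intronic element printed above had 82.3 and 86.8 CPM in rods and 4.14 and 2.27 in Nrl-/- photoreceptors. Green cones were at 27.6 and 12.8 CPM after a single sort, and at 1.55 and 1.8 after a repeat sort. Rods were far above all other libraries, with the single-sorted green cones between, and its log2 fold change of rods over cones was the largest near any of the 9 genes (5.01 ± 0.33 SE, edgeR adjusted p = 7.8e-05). A neighbouring element in the same intron, +2158 bp from the start, had 97.9 and 115.6 CPM in rods, 10.8 and 13.2 in Nrl-/- photoreceptors, and green cones were at 41.5 and 24.2 after a single sort and at 1.55 and 10.8 after a repeat sort (log2 fold change 3.44 ± 0.37 SE, edgeR adjusted p = 0.00056). By contrast the promoter element of Reep6 at -208 bp, which lies between Reep6 and Pcsk4, had 167.2 and 184.3 CPM in rods against 66.1 to 109.4 in the 6 cone libraries and was not called (log2 fold change 0.89 ± 0.20 SE, edgeR adjusted p = 0.801). The other promoter element of Reep6, at -633 bp, had 42.1 and 48.2 CPM in rods against 10.9 to 25.2 in the cone libraries. It was not called over cones (log2 fold change 1.23 ± 0.30 SE, edgeR adjusted p = 0.275). Over double-sorted green cones alone it was called (1.63 ± 0.35 SE, edgeR adjusted p = 0.0707). The RNA difference of Reep6 therefore stood beside moderate ones at its promoter elements and larger ones inside the gene.

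At Prph2 the 6 elements more open in rods lay from +4868 to +20728 bp, 2 of them in its introns, 3 beyond its 3′ end and 1 in an intron of the neighbouring gene Ubr2. The one printed above had 107 and 109.8 CPM in rods, 31.9 and 42.9 in Nrl-/- photoreceptors and 10.1 and 47.6 in double-sorted green cones (log2 fold change 1.69 ± 0.36 SE, edgeR adjusted p = 0.0634). It and the called elements at +7098 and +15932 bp were not followed one by one under the alternatives. DESeq2 called 7 elements near the 9 genes. They include those at Prph2 +15373, +17681 and +20728, Rp1 +2476 and Reep6 +1834 and +2158. Most of the calls at +4868, +7098 and +15932 bp were therefore lost with DESeq2. The size of the difference did not follow the distance. At +7098 bp the element had 29.6 and 29.6 CPM in rods and 1.55 to 6.62 in the 4 cone libraries (log2 fold change 2.67 ± 0.44 SE, edgeR adjusted p = 0.0068). The log2 fold change at +15932 bp was 1.61 ± 0.31 SE. At +15373 bp the element had 13.5 and 19.2 CPM in rods and 0 to 3.11 in the 4 cone libraries (log2 fold change 3.72 ± 0.61 SE, adjusted p = 0.00433), at +17681 bp 82.1 and 77.8 against 1.55 to 20.4 (2.83 ± 0.47 SE, adjusted p = 0.00658), and at +20728 bp 29.6 and 36.1 against 3.11 to 7.72 (2.62 ± 0.37 SE, adjusted p = 0.00333, all by edgeR). The promoter element at -74 bp had 102.7 and 106 CPM in rods against 10.9 to 51.7 and was not called (log2 fold change 1.44 ± 0.37 SE, edgeR adjusted p = 0.167).

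At Rom1 the promoter itself was called. The element at +33 bp, which is also the promoter of Eml3 on the opposite strand, had 151.6 and 147.6 CPM in rods, 65 and 48.1 in Nrl-/- photoreceptors and 9.33 and 45.8 in double-sorted green cones (log2 fold change 1.79 ± 0.41 SE, edgeR adjusted p = 0.0621). That at -542 bp had 34.8 and 37.3 in rods against 6.22 to 14.4 (1.56 ± 0.32 SE, edgeR adjusted p = 0.0804). At Fscn2 the promoter at -44 bp was called as well, with 40.4 and 54.4 CPM in rods against 6.22 to 23.4 (1.67 ± 0.36 SE, edgeR adjusted p = 0.0695), and so was the intronic element printed above, with 51.4 and 56.9 against 2.33 to 17.1 (2.11 ± 0.41 SE, edgeR adjusted p = 0.0229). These 4 calls were lost when either rod library was left out and with DESeq2, as were those at Rp1 -23519, Tulp1 -26608 and Rp1l1 -49947. Their log2 fold changes kept their direction under those alternatives. Values were 1.79 to 1.84 at Rom1 +33, 1.53 to 1.63 at Rom1 -542, 1.44 to 1.88 at Fscn2 -44 and 2.06 to 2.2 at Fscn2 +4884. The SE rose, for example from 0.41 to 0.56 at Rom1 +33 without rod replicate 1. Further alternatives lost some calls. At Fscn2 -44 these were leaving out either Nrl-/- library (edgeR adjusted p = 0.111 and 0.105) and single-sorted green cones (0.137). At Rom1 -542 they were leaving out Nrl-/- replicate 2 (edgeR adjusted p = 0.106) and single-sorted green cones (0.156). Of 12 alternatives, 4 lost the call at Rp1 -23519, 4 at Tulp1 -26608 and 5 at Rp1l1 -49947.

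At Rp1 the intronic element printed above had 74.1 and 75.3 CPM in rods against 10.9 to 18.6 in the 4 cone libraries (log2 fold change 2.25 ± 0.25 SE, edgeR adjusted p = 0.00136). An element at -23519 bp, inside the longest transcript of Rp1, was called as well (1.75 ± 0.41 SE, adjusted p = 0.0758), while the promoter at -30 bp was not (1.59 ± 0.38 SE, adjusted p = 0.106). At Tulp1 the called element at -26608 bp was weak in every library, with 5.62 and 6.21 CPM in rods, 0.828 and 1.36 in Nrl-/- photoreceptors and 0 in both double-sorted green cone libraries, and its promoter at -18 bp was not called (1.21 ± 0.44 SE, edgeR adjusted p = 0.382). The elements at Prph2 +15373, +17681 and +20728, at Rp1 +2476 and at Reep6 +1834 and +2158 remained called under all 12 alternatives.

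**Figure D4:**
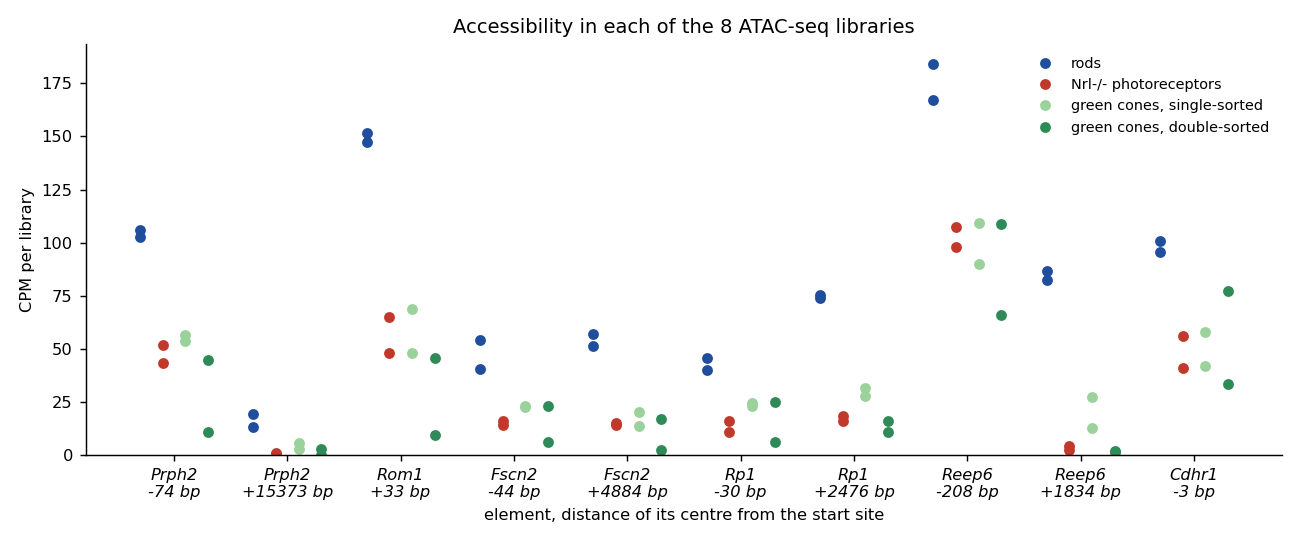
CPM in each of the 8 ATAC-seq libraries at 10 elements, named by gene and distance in bp from the start site, with rods in blue, Nrl-/- photoreceptors in red, and green cones in light (single sort) and dark green (repeat sort). Shown are the nearest promoter element of 6 genes and, for all but Rom1 and Cdhr1, the called element outside promoters with the largest fold change. The 2 rod libraries are the highest points at each, and at Reep6 +1834 they are at 82.3 and 86.8 while Nrl-/- photoreceptors are at 4.14 and 2.27.

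Cdhr1 was higher in Nrl-/- photoreceptors as RNA, but none of the 11 elements tested within 50 kb of it was called more open in cones. Its promoter at -3 bp had 100.8 and 95.8 CPM in rods, 56.3 and 41.3 in Nrl-/- photoreceptors and 33.4 and 77.3 in double-sorted green cones, all cone libraries below both rod libraries (log2 fold change 0.94 ± 0.27 SE, edgeR adjusted p = 0.664), and 10 of its 11 tested elements had a positive log2 fold change. Against Nrl-/- photoreceptors alone the promoter was 1.03 ± 0.14 SE on the log2 scale and the RNA -1.41. Of the 13 elements near Cdhr1, those at +14806 bp, in its intron, and at +49091 bp had too few counts to be tested. Both had 0 and 0.753 CPM in rods. At +14806 bp Nrl-/- photoreceptors had 1.66 and 1.13 CPM and double-sorted green cones 1.55 and 8.98. At +49091 bp these were 0.828 and 1.36, and 4.66 and 1.8. At Prom1 neither promoter element was called, with 7.5 and 11.3 CPM in rods against 9.08 to 28 in the 4 cone libraries at -52 bp (-0.72 ± 0.47 SE), and 28.5 and 30.7 against 18 to 28 at -332 bp (0.38 ± 0.29 SE), and none of its 9 elements was called in any of the 4 comparisons. At Rp1l1 the promoter at -22 bp had 65.8 and 64.8 CPM in rods against 17.1 to 41.8 (1.00 ± 0.28 SE, edgeR adjusted p = 0.578).

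**Figure D5:**
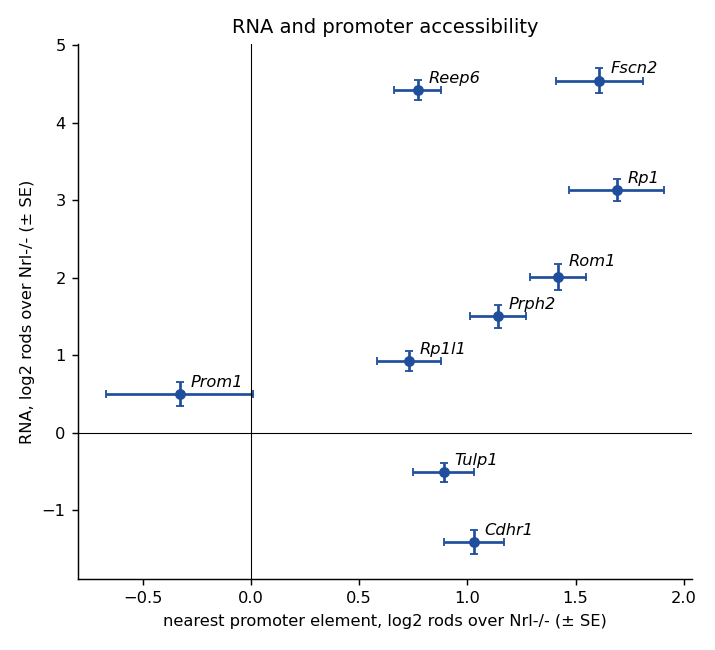
Log2 fold change of RNA (vertical) against that of the promoter element nearest to the start site (horizontal), both rods over Nrl-/- photoreceptors, with SE from edgeR. Cdhr1 and Tulp1 lie below 0 in RNA and above 0 at the promoter, and Reep6 pairs 4.42 in RNA with 0.77 at the promoter.

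Against each cone type alone, which share the rod libraries, 21 of 113 tested elements were more open in rods than in Nrl-/- photoreceptors and 2 less so, where 6.38% and 21% of all elements were. Against double-sorted green cones 27 of 110 were more open in rods and 0 less so, where 6.43% and 18.7% of all were (with an unadjusted p under 0.05, 37 and 1; with DESeq2, 9 and 0). With the processed reads as library sizes, the numbers of all elements more and less open in rods went from 3151 and 10377 to 4028 and 5972 against Nrl-/- photoreceptors, and from 3044 and 8851 to 3958 and 5140 against green cones. The count against green cones rested on the green cone libraries, being 17 when green cone replicate 3 was left out and 71 when replicate 4 was. Between green cones and Nrl-/- photoreceptors 0 of 95 elements were called in either direction (edgeR), where 0.0374% and 0.00234% of all elements were. Against the fold change of 2, 0 and 1 of the 95 had an unadjusted edgeR p under 0.05, and DESeq2 called 0. With no threshold, 12 had an unadjusted edgeR p under 0.05 in either direction. The median log2 fold change of green cones over Nrl-/- photoreceptors was -0.52 over the elements near these genes and -0.04 over all elements. The 0 did not hold without green cone replicate 4, where elements were called more open in Nrl-/- photoreceptors.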

How the data were processed

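RNA and open chromatin of sorted mouse photoreceptors were measured in 14 libraries. Per the submitters' processing notes, the authors aligned ATAC-seq reads with Bowtie2 2.2.3 and RNA-seq reads with STAR 2.4.2a to GRCm38 and counted genes with HTSeq 0.6.1p1; SAMtools 1.3, Picard 1.121, MACS2 2.1.0, bedtools 2.24.0 and HOMER 4.8 are also named. Both deposited tables hold raw counts, per gene and per 200 bp element. Peak lists deposited by the authors give a score, a fold enrichment as a ratio, and −log10 p and −log10 q, and were used only for membership. Reads assigned to no gene were 41.3% to 49.2% of each RNA library and were left out.

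Groups follow the labels. Libraries were scaled by TMM, features kept by filterByExpr, and fitted with the quasi-likelihood model of edgeR 4.0.16 (R 4.3.3), tested with glmTreat against a log2 fold change of 1. Adjusted p-values (Benjamini-Hochberg) had to be under 0.05 in RNA and under 0.1 in ATAC-seq. Fits used all features and were tested on simulated data. DESeq2 1.42.0, other scalings, no filter, no threshold, left-out replicates, a replicate block and other distances were tried. Gene models, start sites and sequences are RefSeq GRCm38.p6. Motifs were counted with pysam 0.24.0. Named are the 9 genes, Nrl, up to 3 called genes per list with the largest change, and the nearest gene in level outside the 9. Promoter elements and up to 3 called elements per gene are named too. A gene that this rule names is not reported here. Other values named in the text, the REEP relatives, the elements at Prph2 and the figures' elements among them, were chosen after they were seen. The members and lists were chosen with earlier results of these data known. P-values measure the spread between pools of mice. In rods over cones that spread also holds any difference between Nrl-/- photoreceptors and double-sorted green cones, which form a joint group there. Intervals are 95%.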

Additional observations from a re-analysis of the deposited data

Results flagged for a closer look

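Among 30 elements examined for a library far from its group, 1 stood apart. At the element -542 bp from the start site of Rom1, the double-sorted green cone replicate 3 had 6.22 CPM, whereas the next lowest of the 4 cone libraries compared had 13.6. It lay farther below the others than Dixon's 95% limit allows, which chance alone exceeds in about 1 in 20 groups.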

How the results depend on the processing

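Of 40 single results, 403 of 475 values under an alternative kept their call, 31 lost it, 41 gained it and none changed sign. In RNA the count of genes lower in rods, 1, became 2 with no fold change threshold and 0 to 1 when each library was left out (0 without rod replicate 1). The count of elements more open in rods than in cones, 15, became 36 with the processed reads as library sizes, 7 with DESeq2, 62 with no threshold and 7 to 18 with each library left out. That more open in cones, 1, became 0 with processed reads, with DESeq2 and within 25 kb, 2 with single-sorted green cones and within 100 kb, and 0 to 1 with each library left out. Against Nrl-/- photoreceptors, 21 became 12 with DESeq2, 71 with no threshold, and 17 to 25 with each library left out. The 2 less open in rods became 0 with processed reads, with DESeq2 and within 25 kb, 5 with no threshold and 0 to 2 with each library left out. Against double-sorted green cones, 27 became 44 with processed reads, 9 with DESeq2, 67 with no threshold, 13 with single-sorted libraries and 14 to 71 with each library left out. The 0 less open in rods became 1 with no threshold, 6 with single-sorted libraries, 2 within 100 kb and 0 to 2 with each library left out. Between green cones and Nrl-/- photoreceptors, the 0 more open in green cones became 1 with single-sorted libraries, and the 0 more open in Nrl-/- photoreceptors became 1 with no threshold and 0 to 22 with each library left out. A lone library left in a group was assumed to vary like the others. The causes were not tested.

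Deviations from the group means of same-numbered libraries correlated at 0.19, 0.09 and 0 in RNA and at 0.03 and 0.03 in ATAC-seq. The second ATAC-seq value repeats the first, because with 2 libraries a group the deviations are equal and opposite. Whether the replicate numbers pair the libraries was not tested further. With the replicate number as a block, 5 genes were higher and 1 lower in rods, and 20 elements were more open in rods than in Nrl-/- photoreceptors and 1 less so. With the unassigned reads in the library totals, the median log2 fold change in RNA was -0.18 over all genes and 1.3 over the 9. With 2 libraries a group and 1062403 counts in the shallowest, small differences at weak elements could not be detected.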
